A study of Homo sapiens with 6 samples.

Results

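The transcripts of 9 genes that carry the Wnt/β-catenin signal inside the cell were followed as H9 human embryonic stem cells (hESCs) were turned into neuromesodermal progenitor-like cells (NMP-L (D3)). The genes were chosen by symbol, with earlier results of these data known. They were the 4 TCF/LEF transcription factors TCF7, TCF7L1, TCF7L2 and LEF1, the β-catenin gene CTNNB1, and APC, AXIN1, GSK3A and GSK3B, which encode parts of the complex that destroys β-catenin. All 9 were found among the 27672 genes of the RNA-seq table. The series held 3 libraries of hESCs at day 0 and 3 libraries of NMP-L cells at day 3, all from the H9 line and labelled as biological replicates. The Methods of the study speak of triplicates from separate experiments in their section on ChIP-seq, and do not describe the RNA-seq. If the RNA-seq replicates do not come from separate cultures, the p-values measure only the spread between these libraries, which may be technical. According to the labels, hESCs were left untreated and kept without feeder cells on fibronectin in DEF medium to which Noggin (10 ng/ml) and bFGF (30 ng/ml) had been added. NMP-L cells had spent 3 days in N2/B27 medium with CHIR99021 at 3 µM and bFGF at 20 ng/ml. CHIR99021 is a small molecule that inhibits both GSK3 kinases and so mimics a Wnt signal. The Methods of the study give another medium (TESR, on Geltrex) for hESCs and also add Noggin and SB431542, an inhibitor of TGF-β-type receptors, during the differentiation. The medium, its bFGF and Noggin, by the Methods also SB431542, and the day of collection therefore changed together with CHIR99021. The effects of these cannot be told apart in this design.

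Without a Wnt signal, β-catenin is held by the scaffolds APC and AXIN1, phosphorylated by casein kinase 1 and by the GSK3 kinases, and then degraded. When a ligand binds, or when GSK3 is inhibited, β-catenin accumulates, enters the nucleus and joins TCF/LEF factors on DNA. These factors are not interchangeable. LEF1 and TCF7 mostly act as activators with β-catenin, TCF7L1 is known chiefly as a repressor that in embryonic stem cells holds down Wnt targets and pluripotency genes, and TCF7L2 can do either. β-catenin is also a structural part of cadherin junctions. Mouse embryos that lack Wnt3a or its target Brachyury form a truncated body axis.

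Of the 9 genes, 6 differed between the conditions, in both directions, and the changes were largest among the transcription factors. LEF1 was 10.7-fold higher in NMP-L (D3) cells and TCF7L1 2.95-fold lower. TCF7L2 and AXIN1 were lower by smaller factors, while CTNNB1 and GSK3B were higher. Relative to GAPDH neither TCF7L2 nor AXIN1 was called, and AXIN1 changed sign. Relative to HPRT1 neither CTNNB1 nor GSK3B was called. TCF7, APC and GSK3A did not pass the threshold of an adjusted p under 0.05 in edgeR's quasi-likelihood test with Benjamini-Hochberg adjustment over all 15517 genes tested. The 3 genes that rose and the 3 that fell made up 66.7% of the 9. Of all genes tested, 55.8% passed the same threshold, 29.1% higher and 26.7% lower in NMP-L cells, so the number of these genes that changed stood close to the background and is no result in itself. Relative to GAPDH 6 of the 9 rose and 1 fell, and relative to HPRT1 1 rose and 4 fell. The median log2 fold change of the 9 genes was 0.06, against 0.03 over all genes tested, and the median of its absolute size was 0.41, against 0.40. A change of at least 2-fold past the threshold was found for 18.6% of all genes and, among the 9, for LEF1 and TCF7L1.

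**Figure D1:**
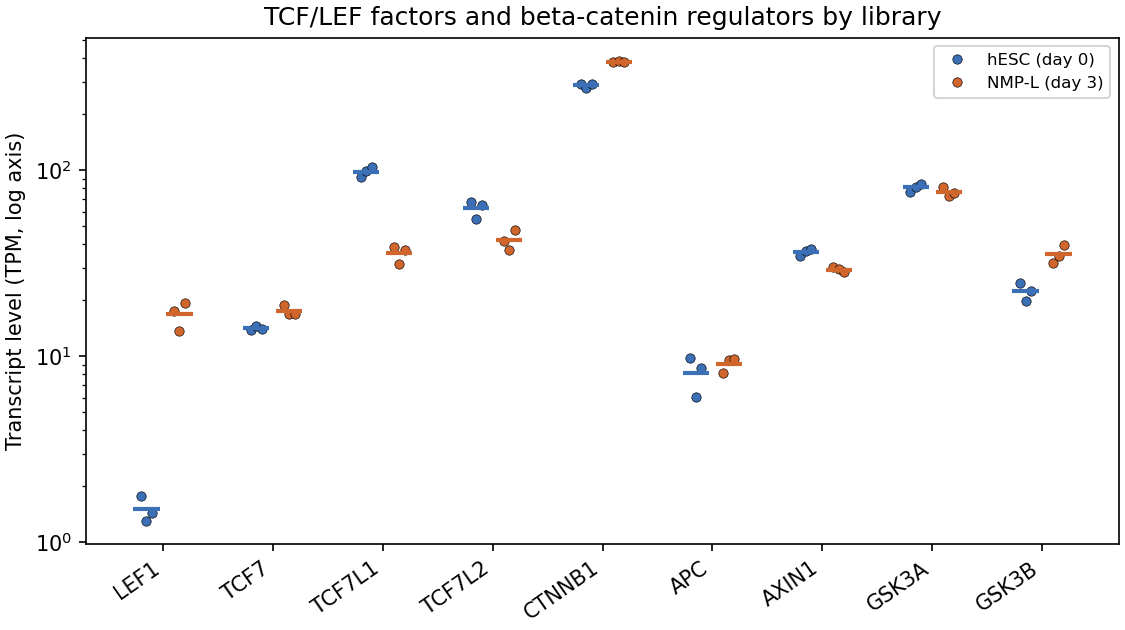
Transcript level in TPM (log axis) of each of the 9 genes in the 3 hESC libraries (blue) and the 3 NMP-L libraries (orange), one point per library with a bar at the mean of each group. LEF1 moved from 1.51 to 16.8 TPM and TCF7L1 from 98.6 to 35.8 TPM, and only for APC and GSK3A did the points of the groups overlap. The share of all genes without overlap is not given here.

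Levels are given in TPM, a relative abundance that RSEM corrects for transcript length and that therefore allows genes to be set side by side. Fold changes, their standard errors (SE) and the test come from the counts after TMM scaling. The libraries held between 19454543 and 23036426 expected counts. With 3 libraries against 3, an exact permutation test (two-sided) cannot give a p under 0.1. For each of the 9 genes this test on log2 CPM (counts scaled to the library total) gave 0.1, except for APC (0.7) and GSK3A (0.2). How many of all tested genes reach 0.1 is not given here, so this count is no result about the 9. Scaling to a single reference gene, as in RT-qPCR, moved the whole distribution. The median log2 fold change of all genes tested was 0.03 with TMM, 0.12 with TPM, 0.59 relative to GAPDH and -0.27 relative to HPRT1, and the share of calls that were higher in NMP-L cells was 52.1%, 61%, 87.5% and 25.3%, respectively. GAPDH itself changed by -0.55 on the log2 scale in NMP-L cells (SE 0.08, edgeR adjusted p = 0.00014). HPRT1 differed by 0.28 without passing the threshold (SE 0.12, edgeR adjusted p = 0.069).

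The labelled cell types were checked by their markers. All 6 markers of pluripotent cells, such as POU5F1 and NANOG, were lower in NMP-L cells, where their summed level was 2374 to 2521 TPM, against 4140 to 4421 TPM in hESCs. Of 8 NMP markers, T (Brachyury), CDX1, CDX2, NKX1-2 and WNT3A rose, TBX6 and FGF17 fell, and SOX2, the other defining NMP gene, was not called. Endoderm markers moved with the condition, with a summed level of 4.82 to 5.16 TPM in hESCs and 18.8 to 30 TPM in NMP-L cells. Both tested genes of the 5, FOXA2 and HHEX, were higher. Most of the NMP-L sum came from FOXA2 (mean 0.103 TPM in hESCs, then 17.2), with HHEX at 4.43 and then 8.14. GATA4 and GATA6 were below the filter, and SOX17 was at or under 3 counts in every library. Other lists summed to lower levels in NMP-L cells. These were 17.2 to 20.8 and then 12.7 to 14.3 TPM for paraxial mesoderm (1 higher, HES7, from 0.0467 to 2.77 TPM, and 1 lower, DLL3, of 3 tested, 6 in all), and 24.7 to 29.2 and then 2.94 to 3.71 TPM for neural crest (both tested genes of 5 lower). They were 262 to 294 and then 158 to 180 TPM for neural cells (1 lower of 2 tested, 5 in all), and 131 to 142 and then 35.1 to 41 TPM for blood and endothelium (the 1 tested gene of 5 lower). In hESCs most of each of these sums came from 1 gene. It was DLL3 (mean 18.1 TPM, then 8.25 TPM in NMP-L cells) for paraxial mesoderm and FOXD3 (21.4, then 0.783) for neural crest. For neural cells it was TUBB3 (273, then 164), and for blood and endothelium it was KDR (136, then 37.7). The part of these cells in the results was not tested. In RNA from whole cultures, more cells that express a gene and more transcript per cell cannot be told apart.

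LEF1 (chr4:108968701-109090112, minus strand, GRCh37) encodes a TCF/LEF factor that is itself switched on by Wnt signals in many tissues. Its counts were 51, 40 and 41 in hESCs and 577, 443 and 644 in NMP-L cells. In TPM these were 1.77, 1.31 and 1.44 against 17.5, 13.7 and 19.4. Every NMP-L library thus stood far above every hESC library, although NMP-L replicate 2 was the lowest of its group. The log2 fold change was 3.42 (SE 0.16, edgeR adjusted p = 1.6e-08). LEF1 passed 14.2% of the tested genes in mean TPM in hESCs and 53.3% in NMP-L cells. An antisense RNA gene, LEF1-AS1, overlaps it on the other strand and had 0 or 1 counts in hESCs and between 5 and 8 in NMP-L cells.

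TCF7L1 (chr2:85360515-85537510, plus strand), also known as TCF3 in the stem cell literature, moved the other way. Its TPM was 92, 99.5 and 104 in hESCs and 38.7, 31.4 and 37.2 in NMP-L cells. The groups lay far apart, with the lowest hESC library above 2 times the highest NMP-L library. The log2 fold change was -1.56 (SE 0.10, edgeR adjusted p = 1.7e-07). TCF7L1 was the most abundant TCF/LEF transcript of hESCs, above 90.2% of all tested genes, and lay above 72% of them in NMP-L cells.

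TCF7L2 (chr10:114710006-114927437, plus strand), a factor best known from the intestinal crypt, also fell. It was measured at 67.9, 55 and 65 TPM in hESCs and at 41.9, 37.2 and 47.5 TPM in NMP-L cells. The groups did not overlap, but the gap between the lowest hESC library and the highest NMP-L library was smaller than the range within either group. The log2 fold change was -0.66 (SE 0.10, edgeR adjusted p = 0.00012), a 1.59-fold lower level. Relative to GAPDH the difference was -0.10 and was no longer called (edgeR adjusted p = 0.54).

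TCF7 (chr5:133450372-133487556, plus strand), the factor known as TCF1 in T cells, was not called. Its TPM was 13.9, 14.5 and 14 in hESCs and 18.9, 16.8 and 16.9 in NMP-L cells, so the groups did not overlap on this scale. On the TMM scale the log2 fold change was 0.19 (SE 0.11, edgeR adjusted p = 0.15). The call depended on the scaling. It was 0.27 with library size as the only scaling (edgeR adjusted p = 0.049), 0.31 on log2(TPM + 0.1) (limma adjusted p = 0.02) and 0.74 relative to GAPDH (edgeR adjusted p = 0.00024), all past the threshold, and -0.10 relative to HPRT1 (edgeR adjusted p = 0.72). The gene overlaps SKP1 on the other strand, which had 4715 to 6885 counts per library, against 391 to 606 for TCF7. Whether counting used the strand is not given in the sources used here, so reads from the stretch the genes share could have been assigned to either.

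The makeup of the TCF/LEF pool was then taken as each gene's share of the summed TPM of the 4 factors, which does not depend on any scaling between libraries. TCF7L1 held 52.4%, 58.4% and 56.4% of the pool in hESCs and 33.1%, 31.7% and 30.8% in NMP-L cells. LEF1 held 1.01%, 0.77% and 0.78% in hESCs and 14.9%, 13.8% and 16% in NMP-L cells. Neither gene's shares overlapped between the conditions. The share of TCF7L1 was lower by 23.9 percentage points (55.8% ± 3.08 to 31.8% ± 1.17, SD, n = 3 libraries each, exact permutation p = 0.1) and that of LEF1 higher by 14.1 points (0.853% ± 0.135 to 14.9% ± 1.1, SD, n = 3, exact permutation p = 0.1).

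TCF7, which was not called in the gene test, had a larger share in each NMP-L library than in any hESC library (15.7% ± 1.56 against 8% ± 0.453, SD, n = 3, exact permutation p = 0.1). The share of TCF7L2 was 38.7%, 32.3% and 35.2% in hESCs and 35.8%, 37.6% and 39.3% in NMP-L cells. These ranges overlapped, and the difference of 2.16 points was smaller than the spread among the hESC libraries (exact permutation p = 0.4). This difference was 0.617 points without hESC replicate 2, 1.31 points without NMP-L replicate 3 and 3.81 points without hESC replicate 1. TCF7L2, although its own mean level fell from 62.6 to 42.2 TPM, was the most abundant of the 4 in each NMP-L library. TCF7L1, which had held that place in hESCs, fell further, from 98.6 to 35.8 TPM. The 4 shares of a library sum to the whole, so they do not move independently. The pool itself was smaller in NMP-L cells, at 117, 99 and 121 TPM against 176, 170 and 185 TPM in hESCs (112 ± 11.7 against 177 ± 7.29, SD, n = 3, exact permutation p = 0.1). The p of 0.1 is the smallest that this design can give.

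**Figure D2:**
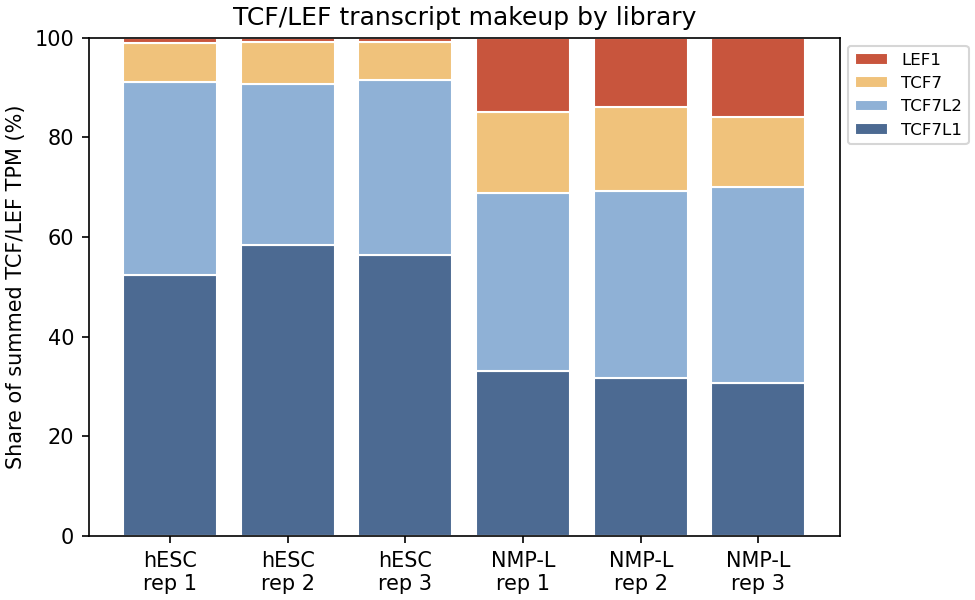
Share (%) of the summed TPM of the 4 TCF/LEF genes held by each gene, one bar per library. TCF7L1 took 52.4% to 58.4% of each hESC bar and 30.8% to 33.1% of each NMP-L bar, LEF1 at most 1.01% and at least 13.8%, respectively.

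Promoter sequence was examined because TCF/LEF genes are known to be among the targets of TCF/LEF factors. RefSeq gave 13 start sites for the 9 genes, each with a window from 250 bases before to 50 bases after the start. These windows (table build GRCh38.p14) were placed on GRCh37 by their sequence, with 1 exact match each. They were searched on both strands for the TCF/LEF core motif, CTTTG followed by 2 bases that are each A or T. The form CTTTGTT is also a form of the SOX motif. A motif was found in 2 of the 13 windows (15.4%), against 13.8% of all 35116 RefSeq windows of the same length. The 250 bases before the start are printed for LEF1 and TCF7L1, the genes with the largest rise and the largest fall, and for the windows of TCF7 and TCF7L2 that held a match, with the match in capitals and each read 5′ to 3′ on the strand of its gene. The first lies at chr4:109087458-109087707 (minus strand), the next at chr2:85360265-85360514 (plus), the third at chr5:133459059-133459308 (plus) and the last at chr10:114886142-114886391 (plus).
LEF1: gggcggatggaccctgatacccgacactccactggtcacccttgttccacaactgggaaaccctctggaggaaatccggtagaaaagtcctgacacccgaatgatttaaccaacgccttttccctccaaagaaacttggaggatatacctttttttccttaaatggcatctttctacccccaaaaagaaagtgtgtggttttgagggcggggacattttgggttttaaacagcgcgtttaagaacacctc
TCF7L1: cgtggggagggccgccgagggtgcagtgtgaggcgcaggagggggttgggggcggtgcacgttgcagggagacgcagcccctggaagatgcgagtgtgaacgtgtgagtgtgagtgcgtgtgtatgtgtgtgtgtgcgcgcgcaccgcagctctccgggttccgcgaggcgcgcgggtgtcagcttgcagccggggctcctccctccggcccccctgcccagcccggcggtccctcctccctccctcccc
TCF7, start site 2: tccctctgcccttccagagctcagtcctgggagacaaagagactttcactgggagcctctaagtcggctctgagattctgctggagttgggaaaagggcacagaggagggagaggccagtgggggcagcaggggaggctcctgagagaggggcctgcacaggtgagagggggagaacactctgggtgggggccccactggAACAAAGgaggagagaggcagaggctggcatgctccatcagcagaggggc
TCF7L2, start site 2: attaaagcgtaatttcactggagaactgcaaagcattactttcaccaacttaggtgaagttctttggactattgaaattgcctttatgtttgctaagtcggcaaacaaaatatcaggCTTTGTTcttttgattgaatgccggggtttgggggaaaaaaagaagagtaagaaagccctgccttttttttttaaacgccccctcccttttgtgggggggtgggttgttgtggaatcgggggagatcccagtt
The windows of LEF1 and TCF7L1 did not hold these letters. The match of TCF7 began at position -50 from its start and read AACAAAG, the reverse complement of CTTTGTT, and that of TCF7L2 began at position -133. Each of these start sites lies inside the longer gene model, downstream of another RefSeq start of the same gene, and the deposited values, 1 per gene, do not show which start was used. The LEF1 window, from the only RefSeq start found for it, also lies inside its gene model, which begins upstream at chr4:109090112. A match is a description of the sequence and says nothing of binding in these cells.

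CTNNB1 (chr3:41236232-41301587, plus strand), the gene of β-catenin, was the most abundant of the 9 in both conditions. It was measured at 291, 278 and 292 TPM in hESCs and 384, 388 and 380 TPM in NMP-L cells. Replicates were tight and the groups far from overlapping, with means of 287 ± 7.77 and 384 ± 4.15 TPM (SD, n = 3). On the TMM scale the log2 fold change was 0.30 (SE 0.07, edgeR adjusted p = 0.0025), a 1.23-fold higher level. Relative to HPRT1 the difference was 0.00 (edgeR adjusted p = 0.99). CTNNB1 stood above 96.8% of the tested genes in hESCs and above 97.8% in NMP-L cells. β-catenin is controlled mainly through the stability of the protein, which RNA-seq does not measure.

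The 4 genes of the destruction complex did not move together. AXIN1 (chr16:337440-402723, minus strand), the scaffold on which the complex assembles, had 34.6, 36.6 and 37.6 TPM in hESCs and 30.2, 29.3 and 28.3 TPM in NMP-L cells. The groups did not overlap. AXIN1 fell by 0.41 on the log2 scale (SE 0.09, edgeR adjusted p = 0.0024), except that scaling to GAPDH turned the difference to 0.15 (edgeR adjusted p = 0.16).

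APC (chr5:112043215-112181936, plus strand), the large scaffold that is lost in most colorectal cancers, was the least abundant of the 4. Its TPM was 9.83, 6.06 and 8.64 in hESCs and 8.12, 9.58 and 9.67 in NMP-L cells. The ranges overlapped, and hESC replicate 2, with 645 counts against 973 and 883 in the other hESC libraries, was the lowest of all. The log2 fold change was 0.06 (SE 0.14, edgeR adjusted p = 0.73), and without hESC replicate 2 it was -0.11 (edgeR adjusted p = 0.44). Relative to GAPDH it was 0.62 and called (edgeR adjusted p = 0.015), and relative to HPRT1 it was -0.23.

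GSK3B (chr3:119540168-119813841, minus strand) and GSK3A (chr19:42730377-42746777, minus strand) encode the closely related kinases that CHIR99021 inhibits. GSK3B was measured at 24.9, 19.8 and 22.4 TPM in hESCs and at 31.8, 34.7 and 39.5 TPM in NMP-L cells. All NMP-L libraries were higher than all hESC libraries. GSK3B rose by a log2 fold change of 0.56 (SE 0.10, edgeR adjusted p = 0.00039), or 1.48-fold, which was reduced to 0.26 and not called relative to HPRT1 (edgeR adjusted p = 0.24).

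GSK3A had 76.5, 81.7 and 84.5 TPM in hESCs and 81.7, 72.3 and 75.9 TPM in NMP-L cells. These values overlapped, and the log2 fold change of -0.17 was not called (SE 0.09, edgeR adjusted p = 0.11). It passed the threshold with a negative sign without hESC replicate 1 (-0.25, edgeR adjusted p = 0.029) and relative to HPRT1 (-0.48, edgeR adjusted p = 0.025), and with a positive sign relative to GAPDH (0.38, edgeR adjusted p = 0.0054).

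**Figure D3:**
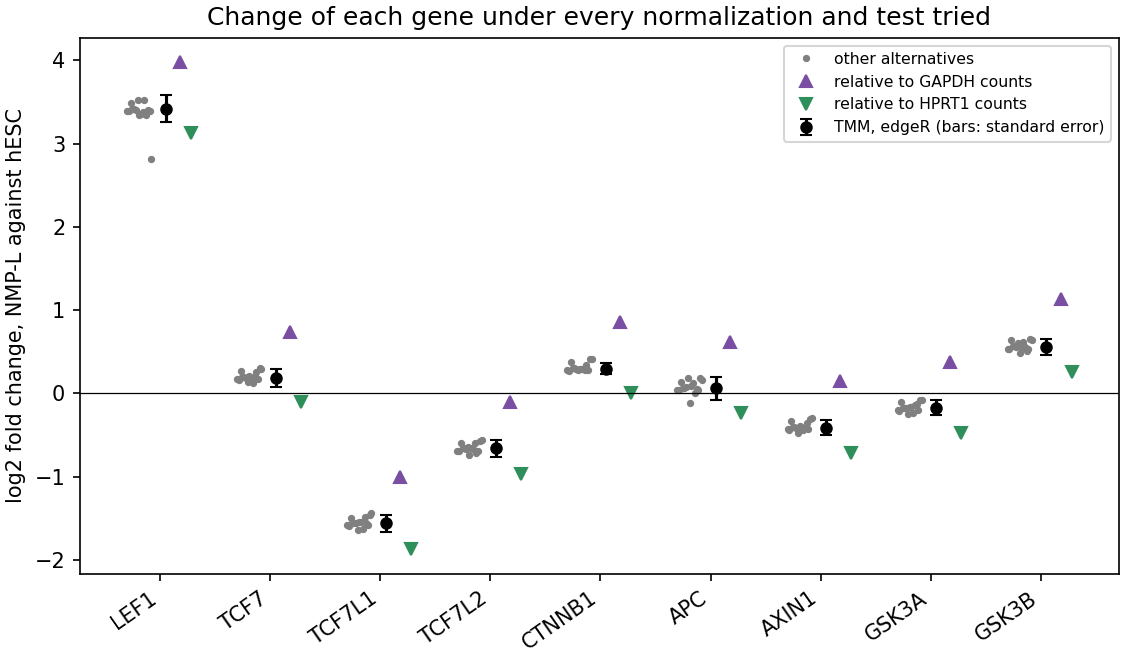
Log2 fold change (NMP-L against hESC) of each of the 9 genes with TMM scaling in edgeR (black, bars are the standard error), relative to GAPDH (purple), relative to HPRT1 (green) and under the other 15 alternatives (grey). LEF1 stayed at 2.82 or above and TCF7L1 stayed below 0 throughout, whereas TCF7, APC, GSK3A and AXIN1 each crossed 0 under at least one of them.

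Ratios between pairs of these genes within a library, on the log2 TPM scale, also stand apart from the choice of scaling. There were 5 such pairs. The ratio of LEF1 to TCF7L1 was -5.70, -6.25 and -6.18 in hESCs and -1.15, -1.20 and -0.94 in NMP-L cells. TCF7L1 transcripts thus outnumbered LEF1 transcripts 65.9 times in hESCs and 2.14 times in NMP-L cells, a shift of 4.95 on the log2 scale, or 30.8-fold. The ratio of TCF7 to TCF7L2 moved in the same direction, from -2.29, -1.93 and -2.21 to -1.15, -1.15 and -1.49, a 1.84-fold shift.

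The kinase pair shifted too. GSK3B to GSK3A was -1.62, -2.05 and -1.92 in hESCs and -1.36, -1.06 and -0.94 in NMP-L cells, so that GSK3A transcripts were 3.63 times and then 2.18 times as abundant as those of GSK3B. CTNNB1 rose against AXIN1 from 3.07, 2.93 and 2.96 to 3.67, 3.73 and 3.75, or from 7.93 to 13.1 times its level. For these 4 pairs no hESC library overlapped with an NMP-L library (exact permutation p = 0.1, the smallest possible, adjusted p = 0.125 over the 5 pairs). CTNNB1 to APC was the exception, at 4.89, 5.52 and 5.08 against 5.56, 5.34 and 5.30, with overlap and a difference of 0.24 (exact permutation p = 0.3, adjusted p = 0.3). That difference was 0.10 without hESC replicate 1, 0.16 without NMP-L replicate 1 and 0.42 without hESC replicate 2.

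**Figure D4:**
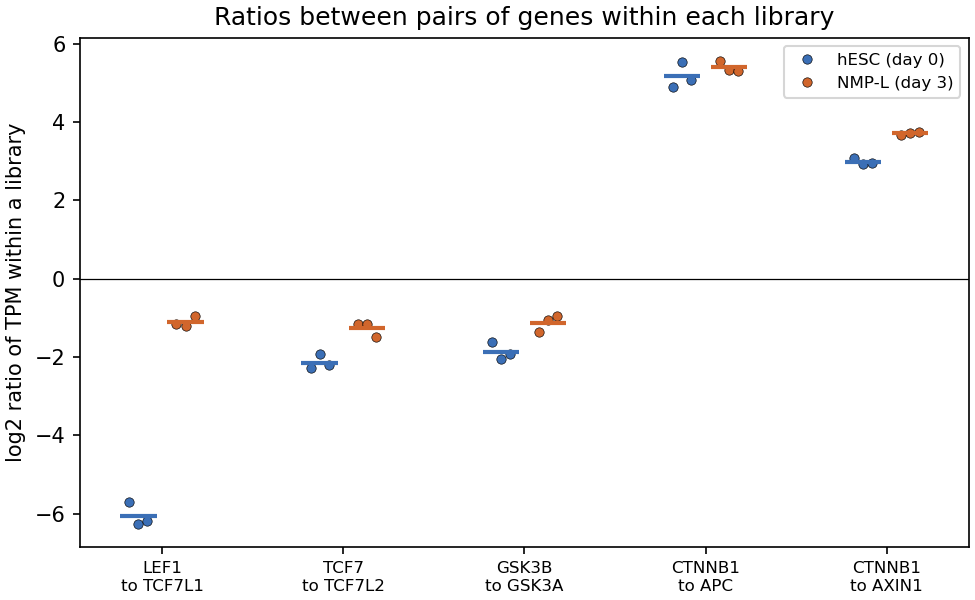
Log2 ratio of the TPM of 2 genes within each library for 5 pairs, with hESC libraries in blue, NMP-L libraries in orange and bars at the group means. The ratio of LEF1 to TCF7L1 moved from a mean of -6.04 to -1.10, and only the points of CTNNB1 to APC overlapped.

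Ordered by mean TPM, the hESC levels ran CTNNB1, TCF7L1, GSK3A, TCF7L2, AXIN1, GSK3B, TCF7, APC and LEF1, and no neighbours in this order overlapped between libraries. In NMP-L cells the order was CTNNB1, GSK3A, TCF7L2, TCF7L1, GSK3B, AXIN1, TCF7, LEF1 and APC. There, TCF7L2 overlapped with TCF7L1, TCF7L1 with GSK3B, and TCF7 with LEF1, so that the order within these pairs is not resolved by the ranges, although TCF7L2 was above TCF7L1 within each library. LEF1 left the last place, which APC took at a nearly unchanged rank, above 39.5% and 39.6% of the tested genes.

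Counts and TPM together imply an effective transcript length, which moves where RSEM assigns reads to longer or shorter isoforms. For LEF1 it was 2.63% longer in NMP-L cells, for TCF7 1.55% shorter and for CTNNB1 1.44% shorter, while for the other 6 genes it differed by no more than 0.25%. On the log2 scale these were 0.038 for LEF1 (pooled SD 0.035), -0.023 for TCF7 (0.015) and -0.021 for CTNNB1 (0.004), where the 5th to 95th percentile of 10747 well-counted genes was -0.03 to 0.02. The value of LEF1 lay outside this range but was of the size of its pooled SD, and it rests on 40 to 51 counts in each hESC library.

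Among the genes with a pattern most like that of LEF1 over the 6 libraries (smallest Euclidean distance of centred log2(TPM + 0.1)) were PIEZO2 (distance 0.222), which encodes a mechanosensitive ion channel, and ATOH8 (0.319), a bHLH transcription factor. They lay below LEF1 in level, at most 3.35 TPM in any library. For TCF7L1 the nearest were PLEKHO1 (0.138), FCHO1 (0.163), which acts in clathrin-mediated endocytosis, and LZTS3 (0.171). With 6 libraries in 2 groups, this distance weighs chiefly the size of the change between the conditions.

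Around the 9 genes, 3 lists of other β-catenin pathway genes held 44 genes, of which 43 were tested. Among these, 14 rose, 14 fell and 15 were not called, or 65.1% called against the 55.8% of all genes, with a median log2 fold change of -0.05. The split was 32 higher and 6 lower relative to GAPDH and 5 higher and 15 lower relative to HPRT1. In the list of destruction complex genes and their regulators, 6 of 18 tested genes rose and 5 fell. AMER1, which recruits APC and AXIN1 to the membrane, rose from 4.32 ± 0.524 to 10.6 ± 0.265 TPM (log2 fold change 1.20, SE 0.11, edgeR adjusted p = 2.7e-06). FRAT2, a GSK3-binding protein that draws the kinase away from AXIN1, fell from 98 ± 5.98 to 33.4 ± 2.11 TPM (log2 fold change -1.65, SE 0.09, edgeR adjusted p = 7.6e-08). Its relative FRAT1, which is similar in sequence, fell from 2.88 ± 0.798 to 1.27 ± 0.102 TPM (-1.28, SE 0.24, edgeR adjusted p = 0.00094). How far reads common to the pair affected these values was not tested. The most abundant gene of this list, the phosphatase subunit PPP2R1A, stood at 400 ± 23.2 and 411 ± 26.6 TPM and was not called (edgeR adjusted p = 0.6). APC2, the second APC gene, was below the filter with at most 20 counts in any library.

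Among 18 nuclear cofactors of β-catenin and TCF, 5 rose, 6 fell and 7 were not called. TLE2, one of the Groucho co-repressors that TCF factors recruit, fell from 15 ± 0.647 to 4.73 ± 0.373 TPM (log2 fold change -1.73, SE 0.12, edgeR adjusted p = 3.9e-07). Its relatives TLE1, TLE3 and TLE4, named after their values were seen, were not called with TMM scaling (edgeR adjusted p = 0.55, 0.85 and 0.29). They stood above TLE2, at means of 38.4, 43.9 and 18.6 TPM in hESCs and 42.9, 46.8 and 18.4 TPM in NMP-L cells. AES (TLE5), a short member of the same family and the most abundant of the list in hESCs but not in NMP-L cells, fell from 215 ± 3.11 to 117 ± 2.3 TPM (-0.98, SE 0.07, edgeR adjusted p = 6.6e-07). PYGO1, which binds BCL9 on the β-catenin complex, rose 2.67-fold but from very low values, 0.133 ± 0.0404 to 0.39 ± 0.113 TPM (edgeR adjusted p = 0.003). BCL9 itself and its relative BCL9L, named after their values were seen, moved apart, with log2 fold changes of 0.96 (edgeR adjusted p = 1.1e-06) and -0.79 (edgeR adjusted p = 2.4e-05). Relative to GAPDH, BCL9L was lower by less (-0.23) and not called.

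Of 7 partners of β-catenin at cell junctions, 3 rose and 3 fell. CDH2 (N-cadherin) rose from 7.87 ± 1.55 to 38.1 ± 2.07 TPM (log2 fold change 2.20, SE 0.12, edgeR adjusted p = 6.3e-08). The other cadherins of the list, named after their values were seen, were more abundant and moved apart. CDH1 (E-cadherin) went from 275 to 354 TPM (0.27, edgeR adjusted p = 0.0071, but -0.02 relative to HPRT1). CDH3 went from 181 to 109 TPM (-0.83, edgeR adjusted p = 5.9e-06). CTNNA2, the α-catenin of neurons, fell from 4.55 ± 0.326 to 1.37 ± 0.187 TPM (-1.91, SE 0.17, edgeR adjusted p = 2.1e-06). The common α-catenin gene CTNNA1, the most abundant of the list in hESCs but not in NMP-L cells, fell from 431 ± 8.78 to 316 ± 5.38 TPM (-0.55, SE 0.07, edgeR adjusted p = 3.6e-05), a difference that was 0.01 and not called relative to GAPDH. CTNNB1 was thus below CTNNA1 in mean TPM in hESCs and above it in NMP-L cells.

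**Figure D5:**
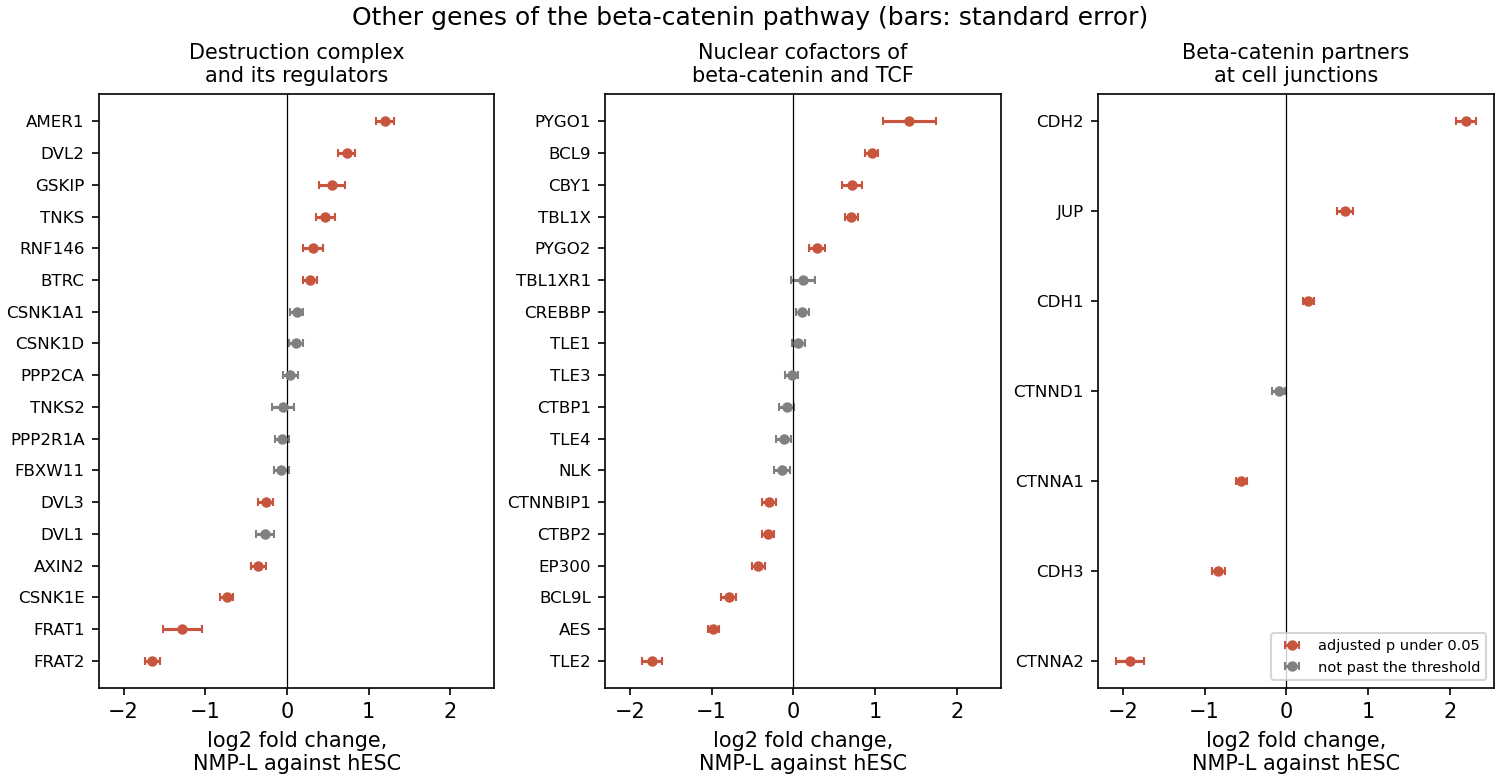
Log2 fold change (NMP-L against hESC, edgeR with TMM scaling, bars are the standard error) of the 43 tested genes of the 3 pathway lists, red where the adjusted p was under 0.05 and grey where it was not. Each list held genes on both sides of 0, from -1.91 for CTNNA2 to 2.20 for CDH2.

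Of 7 genes known as Wnt targets, 6 were tested and 5 called (83.3%, against 55.8% of all genes). SP5, RNF43, NKD1 and NOTUM were higher, AXIN2 was lower, ZNRF3 was not called and LGR5 was below the filter. Pathway activity itself was not tested. NOTUM (log2 fold change 1.10, edgeR adjusted p = 0.026) lost its call relative to HPRT1 and with DESeq2. It also lost the call without hESC replicate 2, hESC replicate 3 or NMP-L replicate 1. SP5, a transcription factor gene switched on by β-catenin, went from 0.317 ± 0.0252 to 64.3 ± 6.15 TPM (log2 fold change 7.53, SE 0.17, edgeR adjusted p = 2.2e-10). The feedback inhibitors RNF43 and NKD1 rose by 2.56 and 2.01 on the log2 scale (edgeR adjusted p = 3.9e-08 and 1.9e-07). AXIN2, the AXIN1 relative that is also counted in the destruction complex list, fell by 0.35 on the log2 scale (SE 0.09, edgeR adjusted p = 0.0081), from 46.8 ± 2.18 to 39.3 ± 4.09 TPM, but was 0.21 higher relative to GAPDH and lost its call without NMP-L replicate 2.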

How the data were processed

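The series measured polyadenylated RNA in 6 libraries, read as single-end 76-base reads. The authors deposited 1 table with RSEM expected counts per gene, not normalised between libraries. Beside them the authors deposited TPM values, corrected for effective transcript length. The submitters' processing notes name cutadapt 1.9.1, STAR 2.5.2a, RSEM 1.3.0, DESeq2 1.12.3 and hg19, with no roles. The annotation and the strand setting are not given in the sources used here.

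Expected counts were rounded (2336 genes had a fractional count, none of the 9 among them). The 15517 of 27672 genes that passed filterByExpr (minimum count 10) were scaled by TMM and tested for condition with glmQLFit and glmQLFTest in edgeR 4.0.16 (R 4.3.3), with an adjusted p under 0.05 as threshold. The SE is the log2 fold change over the square root of F. Shares and ratios used TPM and exact two-sided permutation tests over libraries (scipy 1.17.1). The edgeR fit was also run on simulated counts in which only few genes changed, unlike in these data, so that run cannot judge the scaling used here. Alternatives were 7 other scalings or filters, DESeq2 1.42.0, limma 3.58.1 on log2(TPM + 0.1) and log2(TPM + 1), the replicate block and each library left out.

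The genes and lists were chosen with earlier results of these data known. Of the pathway lists, genes that passed the threshold at 2-fold or more and the most abundant of each list over both conditions were named. For LEF1 and TCF7L1 the 3 genes nearest in pattern were found, of which 1 is not reported here. Gene positions came from GENCODE 44 on GRCh37. Libraries with the same replicate number showed no positive correlation of their deviations from the group mean (-0.366, -0.0579 and -0.133). This cannot show whether they came from the same culture or run, which the sources do not state, and no sequencing batch is given.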

Additional observations from a re-analysis of the deposited data

How the results depend on the processing

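Across 17 alternatives, LEF1 (log2 fold change 2.82 to 3.98, the lowest on log2(TPM + 1)) and TCF7L1 (-1.87 relative to HPRT1, smallest in size relative to GAPDH, and -1.64 to -1.44 in the others) were called in every fit. Of the 153 values of single genes, 138 kept their direction and their side of the threshold, 7 passed it newly, 3 no longer passed it and 5 reversed (of these, GSK3A also newly passed it and AXIN1 no longer did, both relative to GAPDH). Relative to GAPDH, 6 of the 9 genes rose and 1 fell, and of the pathway genes 32 rose and 6 fell. Relative to HPRT1, 1 of the 9 rose, and 5 pathway genes. The reversals were TCF7 (-0.10) and APC (-0.23) relative to HPRT1, GSK3A (0.38) and AXIN1 (0.15) relative to GAPDH, and APC without hESC replicate 2 (-0.11, in a range of -0.11 to 0.18 over the libraries left out). The cause was not tested, beyond the shift of all genes under these scalings. Without the reference genes, the other calls that changed were TCF7, gained with library size only and on both TPM scales, and GSK3A, gained without hESC replicate 1. With each library left out in turn, the difference in share was -25.6 to -22.6 points for TCF7L1, 13.5 to 14.6 for LEF1, 7.04 to 8.55 for TCF7 and 0.617 to 3.81 for TCF7L2, and the difference in log2 ratio of CTNNB1 to APC was 0.10 to 0.42.

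The replicate numbers were shared, but the sources do not state whether they pair the libraries. With the replicate block, 6 of the 9 genes (3 higher, 3 lower) and 23 pathway genes (11 higher, 12 lower) were called, against 28 without it. At this depth LEF1-AS1, APC2 and LGR5 had too few counts for a statement.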

Other observations

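Values chosen after the data were seen are given here without a test. The summed TPM of GSK3A and GSK3B was 101, 101 and 107 in hESCs and 114, 107 and 115 in NMP-L cells. The means were 103 ± 3.14 and 112 ± 4.39 TPM (SD, n = 3), and the highest hESC library and the lowest NMP-L library were level at this rounding. CTNNB1 stood at 1.66, 1.63 and 1.58 TPM per TPM of summed TCF/LEF transcript in hESCs and at 3.28, 3.92 and 3.14 in NMP-L cells, and the groups lay far apart. This ratio joins the higher CTNNB1 level with the smaller TCF/LEF pool.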
